A study of Mus musculus with 29 samples.

Results

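Fos, Fosb, Fosl2, Jun, Junb, Jund, Egr1, Atf3, Myc and Ier2 belong to the immediate early AP-1 and EGR genes or their close relatives, and their transcripts were measured in whole liver of old and young mice by bulk RNA-seq. These 10 genes were chosen by name, with earlier results of these data known, and all 10 were found among the 55421 genes of the count table. Old mice were C57BL/6J, with females of 20 months and males of 24 months, and received either vehicle or HDM201, a drug that keeps MDM2 from binding p53, at 10 mg/kg by oral gavage once a day for 14 days. Young mice were C57BL6/N of both sexes, 5 months old, and received vehicle only, so age and substrain cannot be told apart, and no young mouse received HDM201. Counts were used for 5 young vehicle, 4 old vehicle and 5 old HDM201 females and for 4 young vehicle, 4 old vehicle and 5 old HDM201 males, each a separate mouse. A further old vehicle male (number 1) and a further young vehicle male (number 5) have FPKM values only.

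Immediate early genes are switched on within minutes of a stimulus, without new protein synthesis, by transcription factors that are already in the cell. FOS and JUN proteins pair through leucine zippers to form AP-1, which binds DNA in front of genes of proliferation, inflammation and matrix turnover, and ATF3 is a related zipper protein induced by stress. EGR1 is a zinc finger factor that answers growth factor signals, MYC drives growth and ribosome production, and IER2 is a small nuclear protein of the same early response. In liver these genes are known for their burst after partial hepatectomy, feeding and injury.

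Promoter sequences of 7 of the 10 genes were found in RefSeq (GRCm38.p6), each covering 250 bases before a RefSeq start of the gene and 50 after it. The windows of Fos, Fosl2, Jun and Atf3 are printed 5′ to 3′ on the strand of the gene, because these genes had a higher level (CPM, defined after the sequences) in every old vehicle mouse than in any young vehicle mouse of the same sex; the window of Jund, the remaining gene of that kind, lies outside its annotated span and is not shown. Capitals mark matches to the motifs listed after them. The Fos window is chr12:85473640-85473939 (plus strand), that of Fosl2 is chr5:32136222-32136521 (plus strand, inside the gene's annotated span), that of Jun is chr4:95052173-95052472 (minus strand) and that of Atf3 is chr1:191183284-191183583 (minus strand, inside the gene's annotated span).
Fos: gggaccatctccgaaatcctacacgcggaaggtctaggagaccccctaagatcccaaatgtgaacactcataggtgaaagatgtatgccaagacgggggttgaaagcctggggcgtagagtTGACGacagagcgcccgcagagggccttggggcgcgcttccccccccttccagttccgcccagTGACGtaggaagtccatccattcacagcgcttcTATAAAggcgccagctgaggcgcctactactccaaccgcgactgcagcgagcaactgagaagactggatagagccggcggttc
Fosl2: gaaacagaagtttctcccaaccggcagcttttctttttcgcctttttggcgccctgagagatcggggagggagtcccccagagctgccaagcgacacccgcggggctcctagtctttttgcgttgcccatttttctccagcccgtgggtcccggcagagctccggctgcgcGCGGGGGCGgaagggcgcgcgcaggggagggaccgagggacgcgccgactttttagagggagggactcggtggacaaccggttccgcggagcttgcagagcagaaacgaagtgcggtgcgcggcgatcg
Jun: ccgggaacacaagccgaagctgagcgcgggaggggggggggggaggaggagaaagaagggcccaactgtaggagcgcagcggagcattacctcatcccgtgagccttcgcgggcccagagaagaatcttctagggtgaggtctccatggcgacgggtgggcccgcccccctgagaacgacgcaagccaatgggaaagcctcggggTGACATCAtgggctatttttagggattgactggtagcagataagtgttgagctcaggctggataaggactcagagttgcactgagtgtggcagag
Atf3: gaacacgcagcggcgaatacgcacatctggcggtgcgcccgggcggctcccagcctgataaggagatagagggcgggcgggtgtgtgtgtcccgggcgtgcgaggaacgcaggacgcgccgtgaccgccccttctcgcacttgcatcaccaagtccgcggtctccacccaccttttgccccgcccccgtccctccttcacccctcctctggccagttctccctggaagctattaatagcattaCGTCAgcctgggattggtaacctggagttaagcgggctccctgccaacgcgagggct

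Both strands were searched, and positions count from 0 at the start. Bases outside the windows were not searched, so a motif absent here may still lie elsewhere around the gene. The 7 windows include that of Jund, which lies outside the gene's annotated span. The Fos window held TGACG, the core of the cAMP response element, at -129 and at -66, and a TATA box (TATAAA) at -33. In the Atf3 window TGACG was read on the opposite strand, ending at -3, and in the Fosl2 window the EGR site GCGNGGGCG began at -79. The Jun window held TGACNTCA at -45, a form related to the AP-1 and ATF sites that was added to the search after its sequence had been seen. Among 32851 promoter windows of the same length, 20.8% held TGACG, 13.6% TATAAA, 5.55% the EGR site and 8.83% TGACNTCA. TGACG also occurred in Fosb and Junb, the EGR site in Fosb, and TATAAA in Junb. The CArG box (1.63% of windows), the full cAMP response element TGACGTCA (1.79%, a letter string that also contains TGACG and fits TGACNTCA), the AP-1 site TGANTCA (7.81%) and the E-box CACGTG (7.15%) were not in any of the 7 windows.

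The number of reads counted per mouse lay between 16485900 and 23570458, with a median of 19149235. Levels are given as CPM, the count of a gene divided by the mouse's library size in units of 1e6 reads, with library sizes scaled by TMM. The summed CPM of 7 hepatocyte markers was 79000 to 163000 over all mice of this liver series. Per kilobase of exon, the median level over the 27 mice was highest for Jund (67.6 CPM per kb), followed by Ier2 (18.4), Junb (12), Jun (6.12), Egr1 (4.28), Myc (1.67), Fosl2 (1.33), Atf3 (0.969), Fos (0.662) and Fosb (0.0411). The ranges over mice of neighbours in this order overlapped, except that the lowest mouse for Jund (39.7) lay above the highest for Ier2 (24.8). Apart from Fosb, which had a mouse at 0, the spread between mice was widest for Fos, with a 14.2-fold range, and Egr1, with an 11.3-fold range, and narrowest for Jund (2.17-fold) and Ier2 (1.82-fold).

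Old and young vehicle mice were compared to see which of these genes differ in the aged liver. In females, 6 of the 9 members tested were higher in old mice and 0 were lower, against 16.8% of all 14233 genes higher and 31.8% changed in either direction. In males, 2 of 9 were higher and 0 lower, against 2.76% of 13755 genes higher and 3.69% changed. Because the members were chosen with earlier results of these data known, the excess over all genes is not an independent result. A gene was called when its FDR, the Benjamini-Hochberg adjusted p of edgeR's quasi-likelihood test over all genes, was under 0.05. The median log2 fold change of the 9 members was 0.67 in females and 0.72 in males, beside 0.01 and -0.02 for all genes. Fos, called in both sexes, passed the filter on low counts only through the old mice. The counts of calls and the medians therefore include a gene that the filter favoured. In bulk tissue, a change in the share of a cell type and a change in RNA per cell cannot be told apart.

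**Figure D1:**
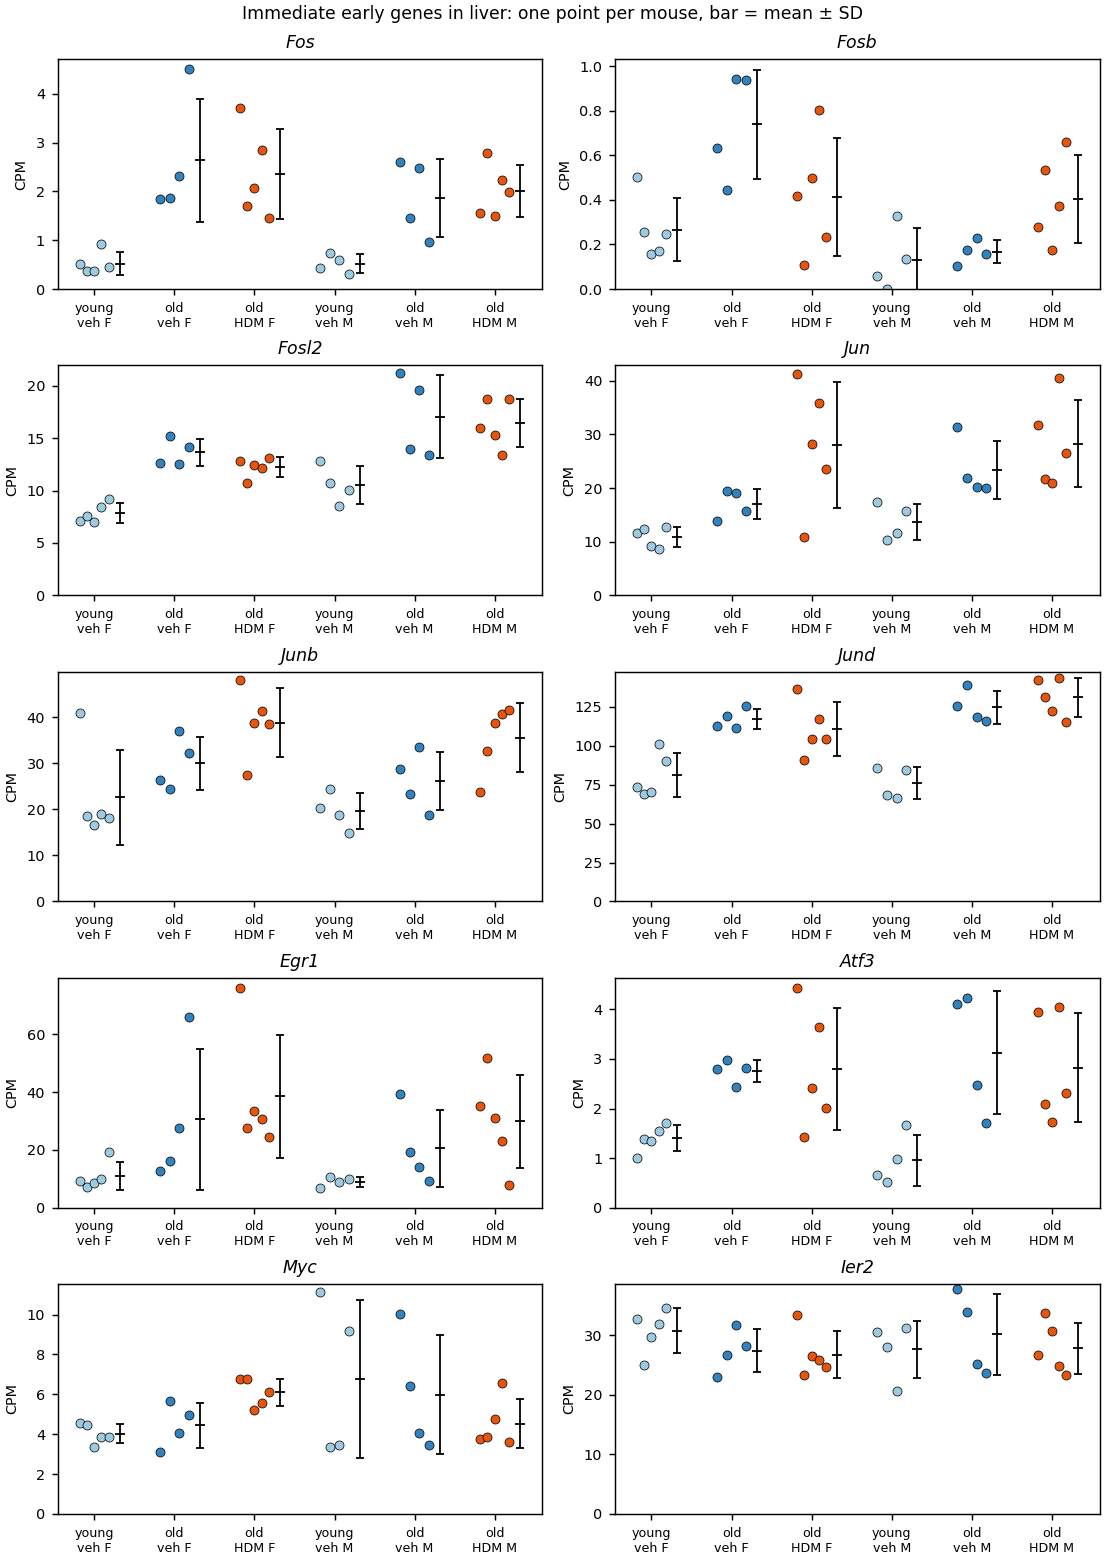
CPM (linear axes from 0) of the 10 genes in each mouse of the 6 groups, with the mean and SD beside the points; veh is vehicle, HDM is HDM201, F is female and M is male. Fos lay between 0.317 and 0.920 CPM in the 9 young mice and between 0.955 and 4.50 in the 18 old mice. No other gene had all 18 old mice above all 9 young ones. The number of old mice above was 17 for Jund, 16 for Atf3, 15 for Jun and 12 for Fosl2 and Egr1. It was 6 for Fosb, 3 for Junb, 1 for Ier2 and 0 for Myc.

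Fos (ENSMUSG00000021250.13; chr12:85473890-85477273, plus strand, GRCm38) encodes the partner that gives AP-1 its strongest binding. Its level in old vehicle females was 1.84, 1.87, 2.32 and 4.50 CPM, and in young females 0.504, 0.359, 0.364, 0.920 and 0.441 CPM. All 4 old females were above all 5 young ones. The means were 2.63 ± 1.26 (SD, n = 4) and 0.518 ± 0.233 CPM (SD, n = 5), a log2 fold change of 2.38 (SE 0.36, edgeR FDR = 5.65e-04). In males, Fos was at 2.61, 1.45, 2.47 and 0.955 CPM in old vehicle mice and at 0.423, 0.743, 0.600 and 0.317 CPM in young mice. The male groups did not overlap either, and the log2 fold change was 1.86 (SE 0.40, edgeR FDR = 0.0369). This male call was lost in 7 of the 8 fits that left out a mouse, with FDR values of 0.0209 to 0.106 and log2 fold changes of 1.65 to 2.09. Across both sexes and treatments, the lowest of 18 old mice (0.955 CPM, old vehicle male 5) lay above the highest of 9 young mice (0.920 CPM, young vehicle female 4). These values rest on 18 and 16 counts, so the gap between them is within counting error. Young mice had 7 to 16 counts of Fos, too few for a test between young females and males. In both age comparisons Fos passed the filter on low counts only through the old mice.

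Fosl2 (ENSMUSG00000029135.10; chr5:32135801-32157842, plus strand) encodes FRA2, a FOS family protein that lacks the strong activation domain of FOS. Old vehicle females had 12.7, 15.2, 12.6 and 14.2 CPM, and young females 7.06, 7.59, 7.02, 8.45 and 9.17 CPM. No old female fell into the young range, giving a log2 fold change of 0.82 (SE 0.11, edgeR FDR = 3.27e-04). In males the levels were 21.3, 14.0, 19.6 and 13.4 CPM in old vehicle mice and 12.9, 10.7, 8.56 and 10.1 CPM in young mice. These groups were also apart, with a log2 fold change of 0.71 (SE 0.18) that missed the threshold (edgeR FDR = 0.0605). Fosb (ENSMUSG00000003545.3; chr7:19302696-19310051, minus strand), a FOS family member that in its shorter form accumulates after repeated stimulation, had 0 to 20 counts per mouse and passed the filter on low counts in neither age comparison. Its level was 0.739 ± 0.243 CPM (SD, n = 4) in old vehicle females, 0.267 ± 0.140 (n = 5) in young females, 0.167 ± 0.0515 (n = 4) in old vehicle males and 0.131 ± 0.142 (n = 4) in young males. The range of old females (0.445 to 0.940 CPM) overlapped that of young females (0.156 to 0.504 CPM). A count of 0 in young vehicle male 2 allows up to 3 counts, or 0.171 CPM, by counting error alone. Without the filter, Fosb was called in females with a log2 fold change of 1.48 (edgeR FDR = 0.0225).

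Jun (ENSMUSG00000052684.4; chr4:95049034-95052222, minus strand, a gene of 1 exon) encodes the central AP-1 subunit. Old vehicle females had 13.8, 19.5, 19.1 and 15.8 CPM and young females 11.7, 12.3, 9.21, 8.68 and 12.7 CPM. The groups did not overlap, and the log2 fold change was 0.67 (SE 0.14, edgeR FDR = 0.00408). Old vehicle males had 31.3, 21.8, 20.3 and 20.1 CPM and young males 17.4, 10.3, 11.6 and 15.7 CPM. Here too the groups did not overlap, with a log2 fold change of 0.77 (SE 0.20) and an edgeR FDR of 0.0605. Jun overlaps the antisense gene Junos, and Jund the antisense gene Gm11175. Because the strand setting of the counting is not given in the sources used here, their reads cannot be told apart.

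Jund (ENSMUSG00000071076.6; chr8:70698949-70700616, plus strand) encodes the JUN protein that resting cells hold at a steady level. It had 113, 119, 111 and 125 CPM in old vehicle females and 73.4, 69.2, 70.6, 101 and 90.1 CPM in young females. Old vehicle males had 125, 139, 118 and 116 CPM and young males 85.7, 68.0, 66.3 and 84.3 CPM. In both sexes every old vehicle mouse was above every young mouse, with a log2 fold change of 0.56 (SE 0.11, edgeR FDR = 0.0031) in females and 0.72 (SE 0.12, edgeR FDR = 0.0128) in males. The male call held in all 8 fits that left out a mouse (edgeR FDR 0.0181 to 0.0395), but not with limma on the FPKM of all males, the 2 without counts included (FDR = 0.197). Junb (ENSMUSG00000052837.6; chr8:84974484-84978718, minus strand, overlapping Prdx2) encodes a JUN protein that can oppose JUN in proliferation. Its level was 26.3, 24.5, 37.0 and 32.2 CPM in old vehicle females and 41.0, 18.5, 16.5, 19.0 and 18.1 CPM in young females. Young female 1 was above all old vehicle females, and the other 4 young mice were below them. The log2 fold change over all mice was 0.44 (SE 0.24, edgeR FDR = 0.187), but without young female 1 it was 0.75 (edgeR FDR = 0.00198). Over the 9 fits that left out a mouse it ran from 0.32 to 0.75 (edgeR FDR 0.00198 to 0.374), and only that 1 fit gave a call. In males the log2 fold change of Junb was 0.44 (SE 0.19, edgeR FDR = 0.222), and the groups overlapped.

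Atf3 (ENSMUSG00000026628.13; chr1:191170296-191218039, minus strand) was at 2.79, 2.98, 2.43 and 2.81 CPM in old vehicle females and at 1.01, 1.38, 1.35, 1.55 and 1.72 CPM in young females. The old females lay close together and above all young ones, with a log2 fold change of 0.99 (SE 0.19, edgeR FDR = 0.00218). In males Atf3 was at 4.12, 4.23, 2.47 and 1.70 CPM in old vehicle mice and at 0.665, 0.514, 0.981 and 1.67 CPM in young mice. The lowest old and the highest young male nearly met, and the log2 fold change of 1.68 (SE 0.42) had an edgeR FDR of 0.0548.

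Egr1 (ENSMUSG00000038418.7; chr18:34859823-34864984, plus strand) varied widely within the old groups. Old vehicle females had 12.8, 16.1, 27.6 and 65.9 CPM, and young females 9.08, 7.12, 8.69, 9.94 and 19.4 CPM. Young female 5 lay within the range of the old mice. The log2 fold change of 1.52 (SE 0.43, edgeR FDR = 0.0174) fell to 0.81 without old vehicle female 4, and its edgeR FDR was then 0.0741. Old vehicle males had 39.5, 19.2, 14.1 and 9.29 CPM and young males 6.71, 10.8, 8.89 and 9.82 CPM, a log2 fold change of 1.19 (SE 0.38, edgeR FDR = 0.104).

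Myc and Ier2 were not called in either sex. Myc (ENSMUSG00000022346.15; chr15:61985391-61990374, plus strand) was at 3.11, 5.66, 4.04 and 4.97 CPM in old vehicle females and at 4.54, 4.46, 3.38, 3.85 and 3.87 CPM in young females, a log2 fold change of 0.18 (SE 0.18, edgeR FDR = 0.496). In males it was at 10.0, 6.43, 4.08 and 3.45 CPM in old vehicle mice and at 11.1, 3.37, 3.44 and 9.19 CPM in young mice. The male groups covered almost the same range, and their log2 fold change was -0.17 (SE 0.45, edgeR FDR = 0.864). Ier2 (ENSMUSG00000053560.5; chr8:84661331-84662852, minus strand) had a log2 fold change of -0.14 in females (SE 0.11, edgeR FDR = 0.346) and of 0.14 in males (SE 0.18, edgeR FDR = 0.697). An interval of 2 SE on each side ran from -0.37 to 0.08 in females and from -0.22 to 0.49 in males. The interaction of sex and age called 0 of 9 members, against 3.92% of 14721 genes, and 0 of the 9 had an unadjusted p under 0.05.

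**Figure D2:**
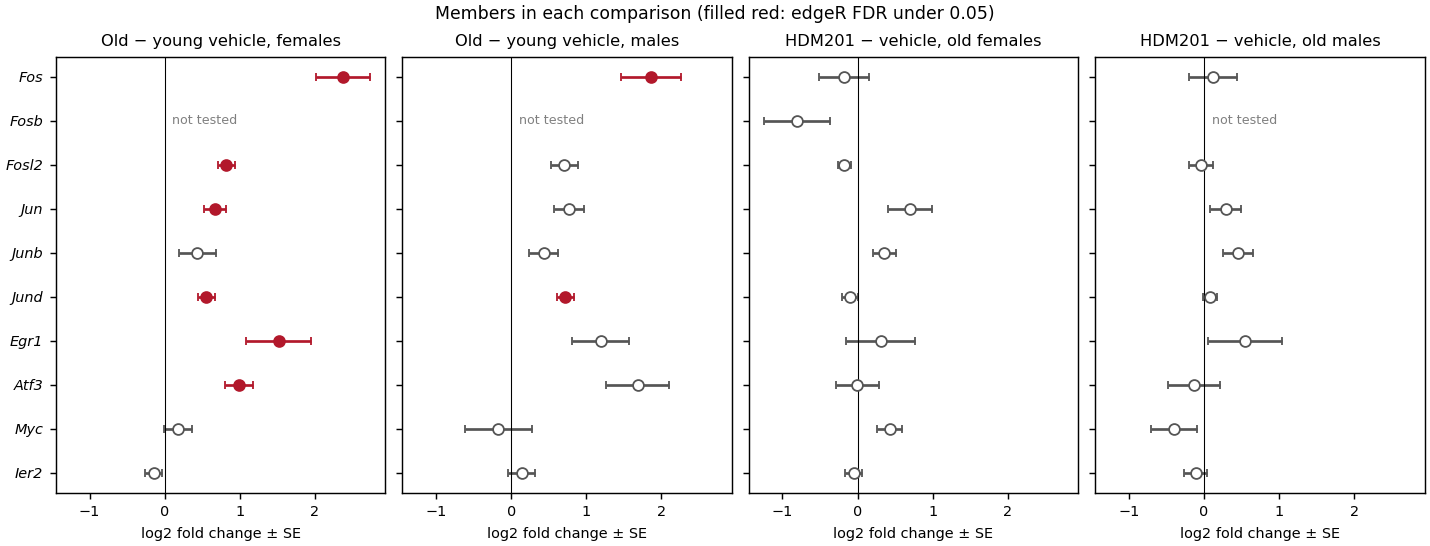
Log2 fold change (horizontal axis, bars are 1 SE) of each gene between old and young vehicle mice and between old HDM201 and old vehicle mice, by sex; filled red points have an edgeR FDR under 0.05. The 6 called genes are filled for old against young females, Fos and Jund for males, and none for HDM201.

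HDM201 and vehicle were compared in old mice to see whether the inhibitor moves these genes. In females 0 of 10 members were called, against 5.25% of 14445 genes, although the unadjusted p of 3 was under 0.05 (Jun, Junb and Myc). In males 0 of 9 were called, against 0.00709% of 14109 genes (1 gene), although the unadjusted p of 1 was under 0.05 (Junb). DESeq2 called 0 members in both sexes. These comparisons share the old vehicle mice with the comparisons by age, so their values are not independent of those above. The median log2 fold change of the members was -0.03 in females and 0.08 in males, beside 0.00 and 0.01 for all genes.

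Jun in old females given HDM201 was at 41.3, 10.8, 28.2, 35.9 and 23.5 CPM. Old HDM201 female 2 was below all 4 old vehicle females (13.8 to 19.5 CPM), and the other 4 were above them. The log2 fold change over all mice came to 0.70 (SE 0.29, edgeR FDR = 0.178), and without old HDM201 female 2 it was 0.90 and passed the threshold (edgeR FDR = 0.0221). Over the 9 fits that left out a mouse it ran from 0.52 to 0.90 (edgeR FDR 0.0221 to 0.336), and only that 1 fit gave a call. In old HDM201 males Jun was at 31.8, 21.7, 21.0, 40.5 and 26.5 CPM, a log2 fold change of 0.29 (SE 0.21, edgeR FDR = 0.598). Junb was at 48.2, 27.5, 38.8, 41.4 and 38.6 CPM in old HDM201 females and at 23.7, 32.7, 38.8, 40.8 and 41.7 CPM in old HDM201 males. Its log2 fold change was 0.36 in females (SE 0.15, edgeR FDR = 0.195) and 0.45 in males (SE 0.20, edgeR FDR = 0.395), and 4 of 5 HDM201 females were above the highest vehicle female (37.0 CPM). Jund, the most abundant of the JUN genes, had log2 fold changes of -0.10 (interval of 2 SE, -0.31 to 0.11) and 0.08 (-0.11 to 0.27).

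Fos was at 3.71, 1.70, 2.08, 2.85 and 1.46 CPM in old HDM201 females and at 1.56, 2.78, 1.5, 2.24 and 1.98 CPM in old HDM201 males. All 10 of these mice were above the highest young mouse, and they overlapped the old vehicle mice. The log2 fold change was -0.19 in females (interval of 2 SE, -0.85 to 0.48) and 0.11 in males (-0.53 to 0.75). Fosl2 had log2 fold changes of -0.18 (-0.35 to 0.00) and -0.05 (-0.37 to 0.27). Fosb was at 0.417, 0.109, 0.499, 0.801 and 0.235 CPM in old HDM201 females and was tested there (log2 fold change -0.81, SE 0.44, edgeR FDR = 0.302). In old males its mean was 0.404 ± 0.196 CPM (SD, n = 5) with HDM201 and 0.167 with vehicle, too few counts for the test.

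Egr1 was at 76.1, 27.7, 33.4, 30.8 and 24.6 CPM in old HDM201 females and at 35.1, 52.0, 31.2, 23.1 and 7.92 CPM in old HDM201 males. Its log2 fold change was 0.31 in females (interval of 2 SE, -0.61 to 1.23) and 0.54 in males (-0.45 to 1.53), and in females it ran from -0.09 without old HDM201 female 1 to 1.02 without old vehicle female 4. Single mice therefore set both its size and its sign. Atf3 was at 4.44, 1.42, 2.41, 3.65 and 2.02 CPM in old HDM201 females, around a mean of 2.79 ± 1.23 CPM (SD, n = 5) where vehicle females had 2.76 ± 0.231 (n = 4). Its log2 fold change was 0.00 (-0.57 to 0.56) in females and -0.13 (-0.82 to 0.55) in males. Myc was at 6.78, 6.78, 5.24, 5.57 and 6.11 CPM in old HDM201 females, with a log2 fold change of 0.43 (SE 0.17, edgeR FDR = 0.162), and at 3.78, 3.85, 4.79, 6.56 and 3.63 CPM in old HDM201 males, with a log2 fold change of -0.40 (SE 0.31, edgeR FDR = 0.617). The log2 fold change of Ier2 was -0.05 in females (-0.28 to 0.18) and -0.11 in males (-0.42 to 0.20).

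The interaction of sex and HDM201 called 0 of 10 members, against 0.107% of 14974 genes. The log2 difference of the effects, female minus male, was -2.08 for Fosb (edgeR FDR = 0.123) and 0.83 for Myc (edgeR FDR = 0.237), the 2 members with an unadjusted p under 0.05. For Fosb the male side of this difference rests on 2, 3, 4 and 3 counts in the old vehicle males, and the gene passed the filter through the other groups, so its value cannot be read as a difference between the sexes. Between young females and young males 0 of 8 members were called by edgeR, against 10.5% of 13875 genes, although the unadjusted p of 2 was under 0.05 (Fosl2 and Myc). Fosl2 was at 7.86 ± 0.932 CPM in young females (SD, n = 5) and 10.5 ± 1.79 in young males (n = 4), a log2 fold change of -0.43 (SE 0.14, edgeR FDR = 0.0664). With DESeq2 its adjusted p was 0.0445. Myc had a log2 fold change of -0.76 (SE 0.33, edgeR FDR = 0.153), and 2 of the 4 young males (3.37 and 3.44 CPM) lay within 0.1 CPM of the lowest young female (3.38 CPM) while the others (11.1 and 9.19 CPM) were above all young females.

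The pathway around these genes was described with fixed lists, which were chosen with earlier results of these data known. The shares of all genes called, in either direction, that stand beside the counts by list are 31.8% for old against young females, 3.69% for males, 5.25% for HDM201 in females, 0.00709% in males and 10.5% for young females against males. Of other immediate early genes, 16 were higher and 8 lower of 42 tested in old females (median log2 fold change 0.38), and 3 higher and 0 lower of 42 in old males (median 0.13). Ier5 (log2 fold change 1.33, SE 0.15), Zfp36l1, which degrades AU-rich mRNAs (0.64, SE 0.11), and Id3, an inhibitor of helix-loop-helix factors (1.18, SE 0.21), had the smallest FDR in females. In males Klf2 (1.01, SE 0.21), the ERK phosphatase Dusp6 (0.62, SE 0.14) and Ier3 (1.35, SE 0.32) were called. HDM201 raised 2 and lowered 3 of 42 in females and called 0 of 43 in males. The calls in females with the smallest FDR were Klf6 (0.51, SE 0.08), Klf2 (-0.72, SE 0.14) and Hes1 (0.78, SE 0.17). Between young females and males 5 were higher in females and 4 lower, of 43, led by Id2 (-0.84), Klf2 (1.11) and Tiparp (0.79).

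Of other AP-1 family genes and zipper partners, 2 were higher and 3 lower of 10 in old females, among them Maf, with a log2 fold change of 0.45, and Mafg, with a log2 fold change of -0.35. In old males 0 were higher and 2 lower of 9 (among them Mafg, -0.37). With HDM201 in females 1 of 11 rose, the small MAF protein gene Mafk (0.45), and 1 fell, Batf3 (-1.32), while in males 0 of 11 were called. Of 9 tested, 2 were higher in young females than in young males, among them Maf (0.47). Among genes known as AP-1 targets, 6 of 8 were higher in old females and 3 of 9 in old males, with 0 lower in both. The hyaluronan receptor gene Cd44 (1.47), the chemokine gene Ccl2 (1.97) and Hmox1 (1.23), the heme oxygenase gene, had the smallest FDR in females, and Mmp12 (3.66), Spp1 (0.96) and Ccnd1 (1.67) were called in males. Between young females and males 6 of the 12 listed passed the filter on low counts, and Ccl2 and Mmp12 did not. By age, Ccl2 and Mmp12 needed the old mice to pass, so the filter favoured a higher level in old mice. With HDM201 in females Spp1 (0.93) and Ccnd1 (1.01) rose and Cd44 (-1.0) fell, of 10, and in males 0 of 10 were called. Spp1 is also a marker of cholangiocytes. Their summed markers, Spp1 itself included, were 84.3 to 151 CPM in old HDM201 females and 49.7 to 71.4 CPM in old vehicle females. Young females had higher Ccnd1 (2.73), Hmox1 (0.43) and Spp1 (0.54) than young males, of 6 tested.

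Upstream genes of the MAPK, SRF and CREB pathways were called in few cases. In old females 2 were higher and 2 lower of 19, among them Rps6ka1, a kinase downstream of ERK (0.66), Egfr (-1.62) and the SRF partner Elk4 (-0.32), and 0 of 19 were called in old males or with HDM201 in either sex. Egfr (-1.63) and Map2k1 (-0.26) were lower in young females than in young males. The 2 EGR corepressor genes were called in none of the 5 comparisons of groups. In the MYC and MAX network, of 9 tested in each comparison, Mycn was lower in old females (-2.32), Mnt was lower in young females than males (-0.49), and no gene was called in old males or with HDM201.

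Other transcripts moved in the same comparisons. In old against young females 11 of 12 macrophage markers were higher, and their summed level was 491 to 1010 CPM in old vehicle females and 301 to 443 CPM in young females. In old HDM201 females the sum was 301 to 493 CPM, and 10 of the 12 markers fell, with 0 higher. In males 3 of 12 were higher in old mice, with sums of 215 to 643 CPM in old vehicle and 139 to 283 CPM in young mice, and 0 of 12 changed with HDM201. All 12 had counts in every group. With HDM201 in females 2 of 5 cholangiocyte markers rose (Spp1 and Epcam), and 1 of 4 neutrophil, 1 of 7 endothelial and 1 of 7 hepatocyte markers fell. Lymphocyte markers were higher for 6 of 8 genes in old females (18.2 to 32.7 against 4.66 to 6.03 CPM) and for 3 of 5 in old males (15.8 to 28.1 against 3.50 to 5.09 CPM). Neutrophil markers were higher for 3 of 3 tested, of 8 listed, in old females (6.22 to 43.5 against 2.01 to 3.97 CPM), with Ly6g at 0 in both young groups. Between young females and males, 1 of 8 neutrophil and 3 of 8 lymphocyte markers passed the filter on low counts. The other markers tested by age needed the old mice to pass it, so the filter favoured a higher level in old mice. Of the stellate and fibroblast markers 3 of 8 were higher in old females and 1 of 8 in old males, of the cholangiocyte markers 2 of 5 and 1 of 5, and of the endothelial markers 1 higher and 1 lower of 7 and 0 of 7. Among 7 hepatocyte markers 3 were lower in old females and 0 were called in old males.

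Core clock genes differed as well in females, with 3 higher and 6 lower of 13 in old mice, led by Cry1 (1.77), Npas2 (3.47) and Hlf (-0.62). Npas2 did not pass the filter on low counts between young females and males. It needed the old mice to pass in females, so the filter favoured its higher level there. Cry1 fell with HDM201 in females (-1.68), and 0 of 12 clock genes were called between old and young males, 0 of 13 with HDM201 in males and 0 of 12 between young females and males. The labels place treatment and euthanasia in the morning without an hour. The part of these cell types and of time of day in the members' levels was not tested.

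Within groups, most pairs of members correlated positively from mouse to mouse. Pairs of other genes were not examined, so this cannot be read as particular to the members. After the group mean of log2(CPM + 1) was taken from each of the 27 mice, the median Pearson r over the 45 pairs of members was 0.32, with 7 pairs over 0.5 and 5 below 0. The pairs with the highest r were Jun and Atf3 (0.71), Egr1 and Ier2 (0.70), Jund and Atf3 (0.68) and Fos and Egr1 (0.61). Every value of a mouse comes from the same library, so depth and composition are shared between the genes of a pair. Fos was set against the other 9 members in a fixed family of tests, with permutations within groups. For Egr1 the Pearson r of 0.614 (permutation p = 0.00588, adjusted 0.0529) and the Spearman rho of 0.562 (permutation p = 0.0119, adjusted 0.0536) missed the threshold after adjustment over the 9 pairs. For Junb r was 0.476 (permutation p = 0.0143, adjusted 0.0644), and rho, 0.611, passed (permutation p = 0.00255, adjusted 0.023). Without the 2 mice farthest from the median of Fos (old vehicle female 4 and young vehicle male 4), r was 0.542 for Egr1 and 0.483 for Junb. These 2 mice were chosen before the group means were removed, so mice that deviate strongly within their group may remain. The other 7 had adjusted permutation p values of 0.126 to 0.728 for r, with Jun at r = 0.255 and Myc at r = 0.0743. Among 12764 other genes, those whose deviations were most like the mean of 9 members (Fosb was below 1 CPM and left out) were Dph5 (r = 0.756), Snhg15 (0.722), Nt5c (0.713), Gm45495 (0.711) and Ralgds (0.689), over the same 27 mice. They were picked as the highest of 12764 values and were not tested. A search of that size gives high values by chance too, so they cannot be read as linked to the members.

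**Figure D3:**
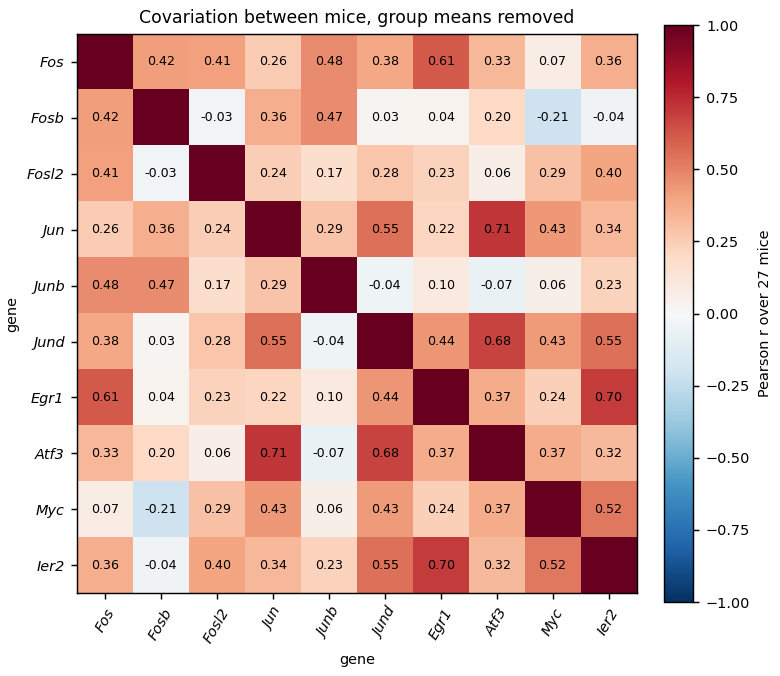
Pearson r between each pair of the 10 genes over 27 mice, after the group means of log2(CPM + 1) were removed (colour scale from -1 to 1, values printed in the cells). The darkest pairs off the diagonal are Jun with Atf3 (0.71), Egr1 with Ier2 (0.70) and Jund with Atf3 (0.68), and all 5 pairs below 0 include Fosb or Junb.

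The 2 males without counts stood apart in the deposited FPKM values. Old vehicle male 1 was above the other 4 old vehicle males in 8 of 10 members, and above all 27 mice with counts in 7. Its Myc was 15.5 FPKM against 1.32 to 4.57 in the others, and its Jun 21.2 against 5.46 to 9.29. In this mouse 16.6% of 12053 genes were more than 2-fold above the median of the group, where the other old vehicle males had 1.38% to 2.08%, so the difference was not limited to the members. Young vehicle male 5 was above the other 4 young males in 6 members, with Fos at 1.52 FPKM against 0.141 to 0.475, Egr1 at 14.1 against 1.80 to 2.84 and Junb at 43.2 against 8.15 to 13.0. Its Fos was also above the 4 old vehicle males with counts (0.399 to 1.10 FPKM). The gap between young and old mice in Fos holds only for the CPM of the mice with counts. In FPKM the ages overlapped among these mice too, with old vehicle male 5 at 0.399 and young vehicle male 3 at 0.475. The study's methods state that a young male was left out of the analysis for a wound and a suspected infection; whether it is this mouse is not given there. In that mouse 7.38% of genes were more than 2-fold higher and 6.47% more than 2-fold lower than the group's median. With both mice included, limma on log2(FPKM + 0.1) called 0 members between old and young males, with Fos at a log2 fold change of 0.99 on that scale (FDR = 0.437) and Jund at 0.78 (FDR = 0.197).

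**Figure D4:**
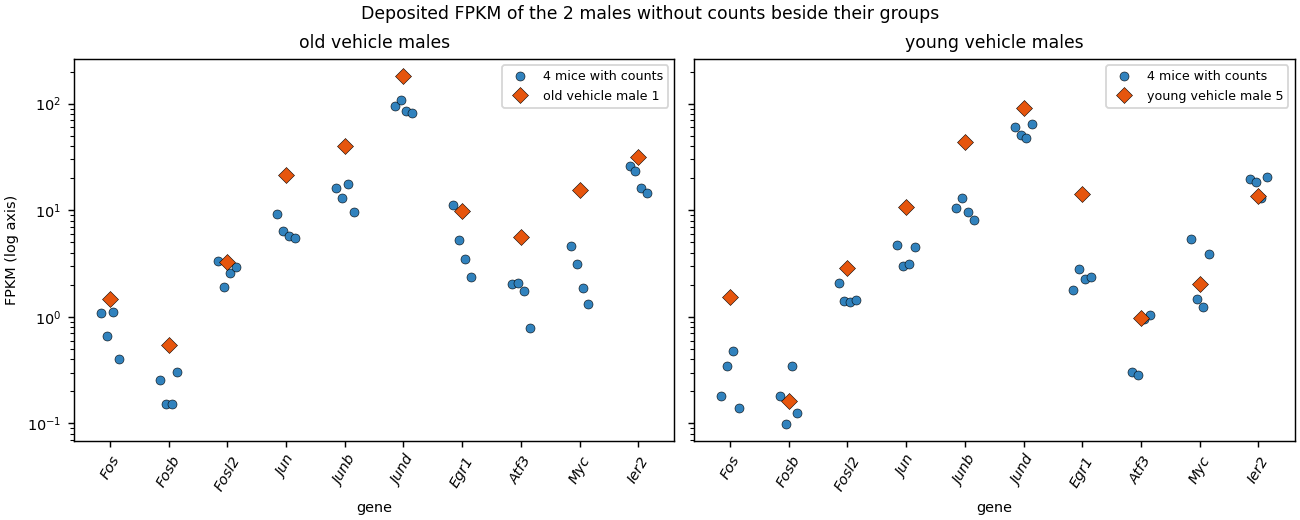
Deposited FPKM (log axis) of the 10 genes in old and young vehicle males, with circles for the 4 mice of each group that have counts and a diamond for the mouse that has none. Old vehicle male 1 lies above its group for 8 genes, and young vehicle male 5 for 6, with Egr1 at 14.1 and Fos at 1.52 FPKM.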

How the data were processed

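Polyadenylated RNA of whole liver was sequenced from 29 mice in 6 groups. The authors aligned reads to mm10 (GRCm38) with STAR in 2-pass mode, filtered them with SAMtools and deposited HTSeq gene counts without normalization for 27 mice. They also deposited FPKM values, made by the authors with Cufflinks for display, for all 29. Versions and the strand setting are not given in the sources used here, and the authors name DESeq2 for testing. All sample columns were used (0 left out), and empty FPKM cells were read as 0.

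Fits used R 4.3.3 and edgeR 4.0.16 and took only the groups compared. Genes were filtered with filterByExpr (minimum count 10, minimum total 15), libraries scaled by TMM, and quasi-likelihood p values adjusted over all genes by Benjamini-Hochberg, with calls at an FDR under 0.05. Comparisons in males had fewer mice than planned, because 2 have no counts. Alternatives were RLE size factors, DESeq2 1.42.0, no filter, a single fit of all 6 groups, a block for the replicate number, an FDR of 0.01 and leaving out each mouse; limma 3.58.1 on FPKM (mean of at least 0.1) was chosen after seeing the data. The fits were tested on simulated data. Correlations used 100000 permutations within groups.

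The 10 genes and the lists (175 genes, 170 found) were chosen with earlier results of these data known. Named genes are the 10 members and, per list and comparison, every called gene or, above 3, the 3 with the smallest FDR. A gene that this rule selects is not reported here. Coordinates come from GENCODE M21 (9 of 10 members with the same ID version; Ier2 matched without it), promoters from RefSeq. Counts per mouse were 16485900 to 23570458, and the limit for a count of 0 covers counting error only.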

Additional observations from a re-analysis of the deposited data

Results flagged for a closer look

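In 60 tests of single mice against their own group, of which chance picks out about 1 in 20, the highest mouse stood apart from the rest in 6. These were Fos in young vehicle female 4 (0.920 CPM), Fosb and Junb in young vehicle female 1 (0.504 and 41.0 CPM), Egr1 in young vehicle female 5 (19.4 CPM) and in old HDM201 female 1 (76.1 CPM), and Jun in old vehicle male 2 (31.3 CPM). Each was a high value, and 4 of the 6 were in young females.

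Some FPKM values of the 2 males without counts exceeded those of all 27 mice with counts. In old vehicle male 1 these were Fosb (0.547 FPKM), Jun (21.2), Junb (40.4), Jund (180), Atf3 (5.58), Myc (15.5) and Ier2 (31.6), and in young vehicle male 5 Junb (43.2). The other members were not above all 27 mice. In old vehicle male 1 the median of 12053 genes was itself 1.32-fold above the other old vehicle males.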

How the results depend on the processing

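The count of members higher in old females was 5 to 7 in all alternatives, and DESeq2 and the fit without a filter added Fosb. In old males 2 members were called, against 6 with DESeq2, 6 without the filter, 4 with all 6 groups in one fit, 0 with limma on log2(FPKM + 0.1) or log2(FPKM + 1), 0 at an FDR of 0.01, and 1 to 5 when a mouse was left out (5 without old vehicle male 5). With HDM201 in females the count was 0, and 0 to 1 when a mouse was left out. Between young females and males it was 0, and 1 (Fosl2) with DESeq2 and with all 6 groups in one fit. Of the other immediate early genes, DESeq2 called 2 with HDM201 in males and 5 between old and young males, where edgeR called 0 and 3. In old females Jun lost its call with all 6 groups in one fit (FDR = 0.0648), and Egr1 with both limma fits (FDR 0.0526 and 0.0653).

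Same-numbered mice of 2 groups did not deviate together (r of -0.234 to 0.241 over 19 pairs, with 5 mice closest to their own number), so the numbers were not taken as pairs. A replicate block gave 0 members in old against young males (Fos FDR = 0.124, Jund FDR = 0.0934), and it changed no other count of members. Under the block, the log2 fold change of Atf3 with HDM201 in females was 0.0149, of Myc in old males 0.46 and of Egr1 in young females against males -0.0593.

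Of 711 values for single members under alternatives, 629 kept direction and side of the threshold, 18 gained and 17 lost a call, and 47 changed sign, none of them called. With limma (pseudocounts 0.1 and 1) these log2 fold changes were, with HDM201 in females, Fos 0.0609 and 0.0271 and Atf3 0.25 and 0.20; with HDM201 in males, Fosl2 0.0361 and 0.0256 and Jund -0.000569 and -0.000953; with age, Ier2 in females 0.0198 and 0.0189 and Myc in males 0.545 and 0.451; and between young females and males, Junb -0.27 and -0.26, Jund -0.0868 and -0.0857 and Egr1 -0.26 and -0.24. Atf3 with HDM201 in females was 0.00106 with DESeq2 and 0.00492 with all 6 groups in one fit. When a mouse was left out, the values that crossed 0 were, with HDM201 in females, Atf3 (-0.22 to 0.16), Egr1 (-0.0943 to 1.02), Fos (-0.40 to 0.21) and Ier2 (-0.15 to 0.0215); with HDM201 in males, Atf3 (-0.34 to 0.0355), Fos (-0.11 to 0.32), Fosl2 (-0.15 to 0.0794) and Ier2 (-0.21 to 0.0188); with age in males, Myc (-0.54 to 0.16); and between young females and males, Egr1 (-0.0590 to 0.39), Junb (-0.12 to 0.32) and Jund (-0.00481 to 0.14). The causes were not tested. With 4 or 5 mice a group, members at low counts such as Fosb have the widest intervals.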
